A study of Homo sapiens with 18 samples.

Results

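The genes described here are the 38 that encode the machinery of asparagine-linked (N-linked) glycosylation: the subunits of oligosaccharyltransferase, the ALG and DPM enzymes that build the sugar donor, the glucosidases and mannosidases that trim the transferred glycan, and the MGAT enzymes and FUT8 that branch and fucosylate it. They were chosen by name, as the probes that carry 1 of these gene symbols and were above background (detection p under 0.05) on 3 or more of 18 bead arrays. All 38 genes passed that filter, through 54 of their 58 probes, and they are 38 of the 13680 genes tested. Of the 38, 33 were above background on all 18 arrays, and ALG2 (11 arrays), MGAT4A (11), MAN2A2 (13), MAN1A2 (15) and MAN2A1 (16) on fewer. Each gene is represented by its brightest probe, and the probe sequences were not analysed here, so whether a probe also reads a paralog was not tested.

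N-glycosylation starts in the endoplasmic reticulum (ER), where an oligosaccharide is built sugar by sugar on the lipid dolichol and then transferred in 1 step to asparagines of nascent proteins by oligosaccharyltransferase. ER glucosidases and mannosidases trim it while the protein folds, and Golgi mannosidases and MGAT enzymes turn it into a complex glycan with several branches. Galectins, among them galectin-4 (gene LGALS4), are lectins that bind the galactose-bearing ends of such branches, and in epithelial tumours the degree of branching is known to affect how glycoproteins are held at the cell surface.

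The 18 Illumina bead arrays measured total RNA of 3 lines derived from human prostate cancer, in 6 groups of 3 arrays. In 22Rv1 and LNCaP cells that carried a tetO-Gal4 construct, from which the inducer Dox (doxycycline) is meant to drive galectin-4, the arrays without Dox were compared with arrays with Dox. In 22Rv1-M4 cells, a knockdown of galectin-4 (shGal4) was compared with a scramble control (shCtrl). The labels give no dose, no time, no clone number and no origin of the 22Rv1-M4 line, and there are no cells without the construct that received Dox, so Dox itself and galectin-4 cannot be told apart. Nor do they state that the 3 replicates of a group were grown separately, and the p-values therefore rest on the spread between these arrays alone, which may be technical.

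LGALS4 was checked first. Its log2 intensity was 12.41, 12.46 and 12.46 on the M4 scramble arrays and 5.32, 4.79 and 4.87 on the M4 shGal4 arrays, and fell by 7.45 (adjusted p = 5.17e-16, limma). In such bulk RNA, fewer cells that express a gene and less RNA of it per cell cannot be told apart. LNCaP arrays without Dox lay at 4.53, 4.64 and 4.57, none above background, and those with Dox at 5.73, 6.79 and 6.96, at least 3.41-fold higher against the lowest signal above background (adjusted p = 1.06e-05). In 22Rv1 the values were 5.91, 5.96 and 5.84 without Dox and 5.84, 5.68 and 6.00 with Dox (log2 change -0.06, adjusted p = 0.874), so the probe goes against the label, and these arrays are called the arrays labelled 22Rv1 with Dox throughout.

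All arrays had similar brightness, with mean intensities of 306 to 404 and 41.9% to 45.1% of probes above background, and replicates correlated at r of 0.976 to 0.996. The lowest correlation and the widest median spread of a gene (SD 0.21, against 0.10 on the 22Rv1 arrays without Dox) were those of the arrays labelled 22Rv1 with Dox. Of 8 luminal prostate markers with a tested probe, KLK2, FOLH1, KRT8, KRT18, HOXB13 and EPCAM were above background on all 18 arrays, TMPRSS2 on 17 and KLK3 on the 6 LNCaP arrays only. On the arrays labelled 22Rv1 with Dox 7 of these 8 markers passed the test, 4 higher and 3 lower, with EPCAM at 2.31 and FOLH1 at -2.41 (log2), and their summed intensity was 8167 to 9603, against 2794 to 2990 without Dox. Fibroblast markers moved in some groups too: 3 of 6 had a tested probe (COL1A1, DCN and LUM), COL3A1 was above background on no array, and the summed intensity was 101 to 114 on 22Rv1 arrays without Dox, 146 to 231 on those labelled with Dox, 153 to 298 for M4 scramble, 128 to 183 for M4 shGal4, and 84.1 to 104 on LNCaP arrays. LUM was called at 1.38 on the arrays labelled 22Rv1 with Dox. DCN read at least 2.68-fold lower in the knockdown, but it passed the detection filter only through the 3 M4 scramble arrays. That selection favours such a fall, which is therefore no evidence of a change. Among leukocyte markers CD3E, which defines T cells, was above background on no array, PTPRC on 1, CD14 on 15 and LYZ on all 18. CD14 and LYZ had a tested probe, limma called neither in any comparison, and their summed intensity was 60.8 to 120.4 over all arrays. Among 4 endothelial markers CDH5 was above background on no array, KDR on 6, PECAM1 on 7 and VWF on the 6 LNCaP arrays only. VWF was at least 4.49-fold higher in LNCaP than in 22Rv1. It passed the detection filter through the LNCaP arrays only, which favours that direction. Within LNCaP it was lower with Dox (log2 change -0.82, adjusted p = 0.000148, limma). The summed intensity of KDR, PECAM1 and VWF was 158 to 178 on LNCaP arrays without Dox, 104 to 129 with Dox and 66.7 to 75.0 on the others. The part of these marker differences in the changes below was not tested.

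Across the 38 genes, both Dox comparisons and the knockdown each moved some members up and others down. A gene was called when its Benjamini-Hochberg adjusted p over the 13680 genes was under 0.05 in a limma model of the 6 group means. On the arrays labelled 22Rv1 with Dox 15 of the 38 were called, 5 higher and 10 lower, where 24.8% of all genes were called, 9.14% higher and 15.7% lower. With Dox in LNCaP 20 were called, 11 higher and 9 lower, against 27.8% of all genes, 10.9% higher and 17.0% lower. The M4 knockdown called 10, 4 higher and 6 lower, against 23.3% of all genes, 13.0% higher and 10.3% lower, a share of the members close to that background. Scaling arrays to a common median instead gave 1 higher and 6 lower in the knockdown. Taking the main axis of variation between arrays of the same group (the within-group axis) as a covariate left 1 of the 20 LNCaP calls. The share of all genes called under these alternatives is not given here. Whether such losses are particular to the members was not tested. The median log2 change of the 38 genes was -0.13, -0.16 and -0.13 in these comparisons, beside -0.06, -0.08 and 0.02 over all genes tested. Groups did not overlap for 19, 25 and 19 of the 38, where 38.9%, 44.0% and 37.2% of all genes did not overlap.

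Between the control groups, 14 of the 38 were called for M4 scramble over 22Rv1, 7 higher and 7 lower, where 35.4% of all genes were called (14.7% higher, 20.7% lower), and 18 for LNCaP over 22Rv1, 12 higher and 6 lower, where 50.3% were called (23.7% higher, 26.6% lower). Both shares of the members were near the background, and median scaling gave 5 higher and 6 lower for LNCaP over 22Rv1. The groups did not overlap for 21 and 23 members, where 49.8% and 61.6% of all genes did not. These comparisons share the 22Rv1 arrays without Dox with each other and with the 22Rv1 Dox comparison, and the M4 scramble arrays with the knockdown.

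**Figure D1:**
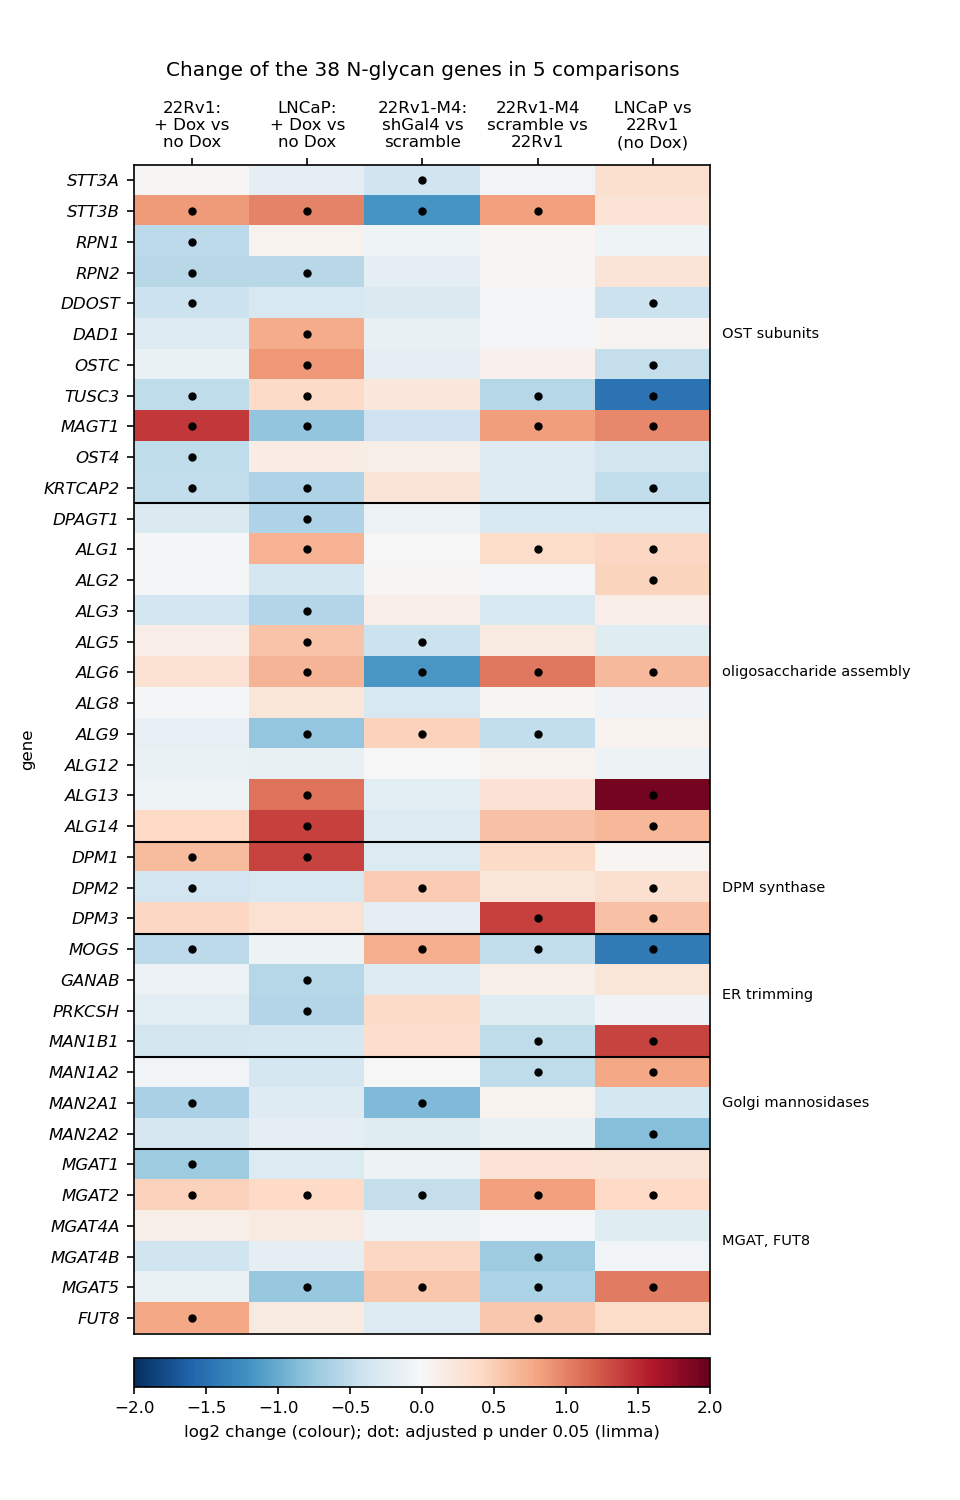
Heat map of the log2 change of each of the 38 N-glycan genes (one line per gene, grouped by role) in 5 comparisons (columns), with red for higher and blue for lower in the group named first, and a black dot where the adjusted p by limma was under 0.05. STT3B and MGAT2 carry dots in all of the first 3 columns, red in both Dox columns and blue in the knockdown column.

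Only STT3B and MGAT2 were called in all 3 perturbations, where 2.66% of all genes were, in any combination of directions. Both were higher on the arrays labelled 22Rv1 with Dox and on LNCaP arrays with Dox, and both were lower in the M4 knockdown. The share of all genes with these same directions is not given here. Another 12 members were called in 2 perturbations and 15 in 1, where 16.2% and 35.5% of all genes were. The 9 called in none were ALG2, ALG8, ALG12, DPM3, MAN1B1, MAN1A2, MAN2A2, MGAT4A and MGAT4B, where 45.6% of all genes were called in none.

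Promoters were searched because ER chaperone genes, listed near the end of the results, changed in the same comparisons. Letters on both strands were matched in RefSeq windows of GRCh38.p14, 250 bases before to 50 after a gene's start, which exist for 32 of the 38 members and make 35116 windows in all. The ER stress response element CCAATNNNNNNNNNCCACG occurs in 0.0769% of all windows and in 1 member, ALG12. The other form of that element, ATTGG and CCACG 1 base apart, occurs in 0.0541% of windows and the unfolded protein response element TGACGTGG in 0.729%, both in 0 members. The parts CCAAT and CCACG, added after the first search, which overlap both forms of the element, occur in 34.6% and 38.1% of windows. Counted per gene, with any of its windows, they occur in 39.7% and 42.1% of all genes and in 20 and 19 of the 32 members. Counted the same way, the ER stress response element occurs in 0.0916% of all genes and its other form in 0.0696%. The unfolded protein response element occurs in 0.927% of all genes. The windows shown, 5′ to 3′, are those of ALG12 for its element, of MGAT2 because it was called in all 3 perturbations, and of MAGT1 for its change with Dox (1 of its 2 windows), with CCAAT and CCACG on either strand in capitals.
ALG12, chr22:49918389-49918688, minus strand: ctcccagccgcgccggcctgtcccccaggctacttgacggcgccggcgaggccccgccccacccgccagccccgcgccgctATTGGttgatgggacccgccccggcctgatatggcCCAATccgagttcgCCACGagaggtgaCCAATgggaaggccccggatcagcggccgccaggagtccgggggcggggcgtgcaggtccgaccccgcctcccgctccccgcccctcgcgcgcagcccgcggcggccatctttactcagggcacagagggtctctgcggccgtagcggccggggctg
MGAT2, chr14:49620549-49620848, plus strand: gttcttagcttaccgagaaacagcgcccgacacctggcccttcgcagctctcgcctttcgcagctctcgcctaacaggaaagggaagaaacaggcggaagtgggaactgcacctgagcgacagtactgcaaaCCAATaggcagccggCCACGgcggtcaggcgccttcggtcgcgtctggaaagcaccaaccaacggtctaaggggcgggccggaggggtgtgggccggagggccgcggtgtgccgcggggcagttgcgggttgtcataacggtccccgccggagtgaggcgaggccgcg
MAGT1, chrX:77895519-77895818, minus strand: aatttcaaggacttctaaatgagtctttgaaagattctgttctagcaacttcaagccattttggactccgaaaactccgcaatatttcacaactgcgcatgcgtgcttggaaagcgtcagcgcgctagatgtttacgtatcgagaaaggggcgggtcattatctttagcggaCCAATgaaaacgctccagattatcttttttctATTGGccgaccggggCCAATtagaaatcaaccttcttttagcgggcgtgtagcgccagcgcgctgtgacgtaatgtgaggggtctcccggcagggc
In the ALG12 window the element is the stretch from the second capital run to the third. ALG12, a mannosyltransferase of donor assembly, was called in none of the comparisons, with log2 changes of -0.13, -0.15 and -0.01 in the 22Rv1 Dox, LNCaP Dox and knockdown comparisons. A match describes these letters only, and nothing about a factor follows from it or from its absence.

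Among the 11 oligosaccharyltransferase subunits, the Dox changes of MAGT1 and TUSC3, the alternative partners of the catalytic subunit STT3B, differed between the lines with opposite signs. STT3A and STT3B are the catalytic subunits of separate enzyme complexes: STT3A glycosylates proteins as they enter the ER, and STT3B, with the oxidoreductase MAGT1 or TUSC3, reaches sites that were skipped. On the arrays labelled 22Rv1 with Dox 2 subunits were called higher and 6 lower, with a median log2 change of -0.43 beside -0.06 for all genes. With Dox in LNCaP 4 were higher and 3 lower (median 0.07), and in the knockdown 2 were called, both lower (median -0.18). Of the 11 subunits 72.7%, 63.6% and 18.2% were called in these comparisons, beside 24.8%, 27.8% and 23.3% of all genes.

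STT3B lay at 6.65, 6.82 and 6.60 on 22Rv1 arrays without Dox and at 7.76, 7.46 and 7.40 on those labelled with Dox. In LNCaP it lay at 6.82, 7.39 and 6.68 without Dox and at 7.98, 7.85 and 8.03 with Dox. M4 scramble arrays read 7.34, 7.25 and 7.93, and M4 shGal4 arrays 6.46, 6.39 and 6.12. In each of these comparisons the arrays did not overlap, with log2 changes of 0.85 (SE 0.18, adjusted p = 0.00175 by limma), 0.99 (SE 0.18, 0.000816) and -1.18 (SE 0.18, 6.28e-05). STT3B was also higher in M4 scramble than in 22Rv1 by 0.82 (adjusted p = 0.00165), a change that shares its arrays with 2 of the others. That call was lost with the within-group axis as a covariate (0.0576).

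STT3A was called in the knockdown only. It lay between 9.84 and 10.51 on all 22Rv1 arrays and between 10.17 and 10.54 on all LNCaP arrays. Its log2 changes were 0.03 on the arrays labelled 22Rv1 with Dox (95% interval -0.26 to 0.32) and -0.18 with Dox in LNCaP (-0.47 to 0.11). In the knockdown it fell from 9.97, 10.10 and 10.13 to 9.62, 9.74 and 9.65, a change of -0.39 (SE 0.14, adjusted p = 0.0438) without overlap, a call lost when any 1 of the 6 M4 arrays was left out (adjusted p up to 0.121).

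MAGT1 rose from 9.86, 9.55 and 9.88 to 11.63, 10.99 and 10.90 on the arrays labelled 22Rv1 with Dox. The groups were clearly apart, and the log2 change of 1.41 (SE 0.27, 2.66-fold, adjusted p = 0.000511) was the largest of the 38 genes in that comparison. In LNCaP it fell from 10.38, 10.41 and 11.41 to 10.03, 9.61 and 10.17, a change of -0.79 (SE 0.27, adjusted p = 0.0302) in which replicate 3 without Dox stood above the others. The difference between the Dox changes of the lines was 2.20 (SE 0.38, adjusted p = 0.000313). M4 scramble arrays read 10.76, 11.07 and 9.98 and shGal4 arrays 10.17, 10.23 and 10.16, which overlap (log2 change -0.42, adjusted p = 0.28). M4 scramble also lay above 22Rv1 in MAGT1, by 0.84 (adjusted p = 0.0177, limma). That call was lost with the within-group axis as a covariate and when some single arrays were left out (up to 0.106).

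TUSC3 differed the other way. It fell from 9.75, 9.77 and 9.73 to 9.21, 9.26 and 9.27 on the arrays labelled 22Rv1 with Dox, and rose from 8.35, 8.33 and 8.13 to 8.65, 8.60 and 8.68 with Dox in LNCaP, without overlap in either line. The changes were -0.50 (SE 0.11, adjusted p = 0.0026) and 0.38 (SE 0.11, adjusted p = 0.0186), and their difference was -0.88 (SE 0.16, adjusted p = 0.000621). The other TUSC3 probe gave -0.62 and 0.12. M4 scramble arrays read 9.00, 9.22 and 9.33 and shGal4 arrays 9.45, 9.41 and 9.37, which did not overlap but did not pass (log2 change 0.23, adjusted p = 0.157), while the other probe gave 0.59 (adjusted p over probes = 0.00764). Untreated LNCaP arrays held less TUSC3 signal than 22Rv1 arrays, by a log2 difference of -1.48 (adjusted p = 4.87e-10), and more MAGT1, by 0.97 (0.00436). M4 scramble also lay below 22Rv1 in TUSC3, by -0.57 (adjusted p = 0.000644, limma), a call that held in every alternative.

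The MAGT1 and TUSC3 calls on the arrays labelled 22Rv1 with Dox, those of the difference between the lines and those of LNCaP over 22Rv1 held under every alternative setting and with any single array left out, as did the STT3B calls on the arrays labelled 22Rv1 with Dox and in the knockdown. The LNCaP Dox call of MAGT1 was kept in 3 of 10 alternative settings. It was lost with no background correction, median scaling, no detection filter, the deposited log2 matrix, only the arrays compared and both adjustments for the within-group axis, and also without replicate 3 lacking Dox or replicates 1 or 2 with Dox (adjusted p up to 0.411). Without replicate 3 lacking Dox the change was -0.46. That of TUSC3 was lost without replicate 3 of either group, with median scaling, with the mean of its probes and with the axis as a covariate (up to 0.24).

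**Figure D2:**
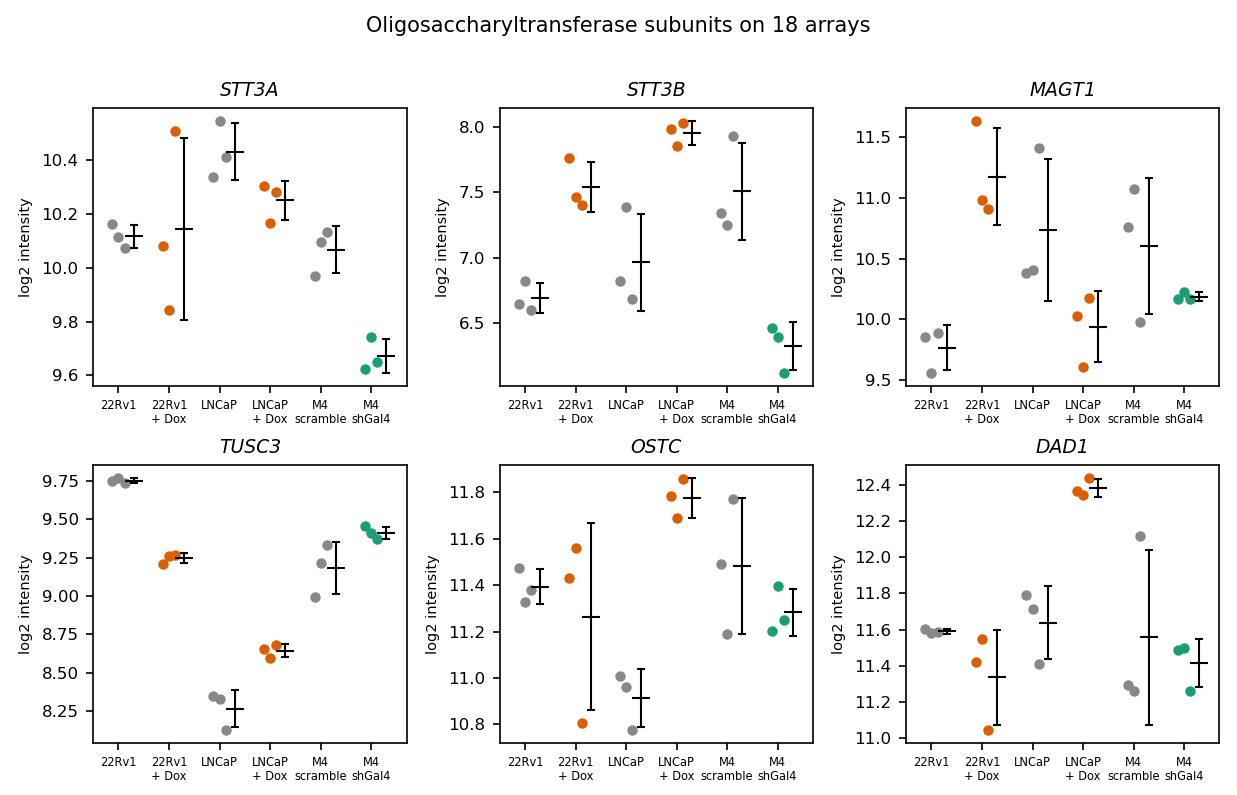
Log2 intensity (vertical axes) of 6 oligosaccharyltransferase subunits on the 18 arrays, by group (horizontal axes). Points are arrays, and the bar beside them is the mean with its SD (n = 3). MAGT1 is high on the 3 arrays labelled 22Rv1 with Dox (10.90 to 11.63). LNCaP replicate 3 without Dox (11.41) and M4 scramble replicate 2 (11.07) also lie in that range. TUSC3 is lowest on the LNCaP arrays without Dox (8.13 to 8.35).

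Of the 7 remaining subunits, RPN1, DAD1 and OSTC differed between the Dox changes of the lines, and RPN2, KRTCAP2, DDOST and OST4 were not called there (adjusted p = 0.984, 0.719, 0.773 and 0.0534, limma). RPN1 and RPN2 (ribophorins), DDOST, DAD1 and OST4 belong to both kinds of complex, while OSTC and KRTCAP2 tie the STT3A complex to the translocon. On the arrays labelled 22Rv1 with Dox RPN1 (-0.53), RPN2 (-0.56), DDOST (-0.43), OST4 (-0.51) and KRTCAP2 (-0.50) were called lower, with adjusted p between 0.00312 and 0.0263, and DAD1 (-0.25) and OSTC (-0.13) were not called. RPN1 fell from 11.91, 11.65 and 11.84 to 11.39, 11.25 and 11.18, without overlap. Without replicate 1 labelled with Dox the number of subunits called lower fell from 6 to 2, and without replicate 3 lacking Dox to 3, with RPN1, RPN2, DDOST, OST4 and KRTCAP2 reaching adjusted p of 0.0688, 0.0828, 0.106, 0.122 and 0.0617 over all alternatives. The RPN1 call held with any single array left out and was lost without the 3 arrays far along the within-group axis, an alternative chosen after seeing the data.

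With Dox in LNCaP, OSTC rose from 11.01, 10.96 and 10.78 to 11.78, 11.69 and 11.86, a change of 0.86 (SE 0.17, adjusted p = 0.0012). Its other probes gave 1.39 and 0.79. DAD1 rose from 11.79, 11.71 and 11.41 to 12.36, 12.35 and 12.44, a change of 0.74 (SE 0.18, adjusted p = 0.0053). Neither gene's groups overlapped. In 22Rv1, OSTC read 11.47, 11.33 and 11.38 without Dox and 11.43, 11.56 and 10.81 on the arrays labelled with Dox, which overlap, and DAD1 read 11.60, 11.58 and 11.59 and then 11.42, 11.55 and 11.04, which do not. RPN2 (-0.55) and KRTCAP2 (-0.62) were called lower in LNCaP as well, and RPN1 (0.07) and OST4 (0.14) were not called.

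The Dox changes themselves were compared between the lines, where 18.8% of all genes differed, 9.42% with a positive and 9.39% with a negative difference (22Rv1 minus LNCaP). Of the 38 members 8 (21.1%) differed, 1 positive and 7 negative, so the share called either way was near that background. Apart from MAGT1 and TUSC3 these were OSTC (-0.99, adjusted p = 0.00577), DAD1 (-0.998, 0.00949), RPN1 (-0.60, 0.0202), ALG1 (-0.71, 0.0113), ALG13 (-1.16, 0.0307) and DPM1 (-0.72, 0.039). For STT3B the difference was -0.14 (95% interval -0.68 to 0.40) and for RPN2 -0.01 (-0.47 to 0.45). Single arrays changed the number: 5 members were called without replicate 1 of 22Rv1 lacking Dox or replicate 2 of LNCaP with Dox, and 15 without replicate 2 labelled 22Rv1 with Dox.

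**Figure D3:**
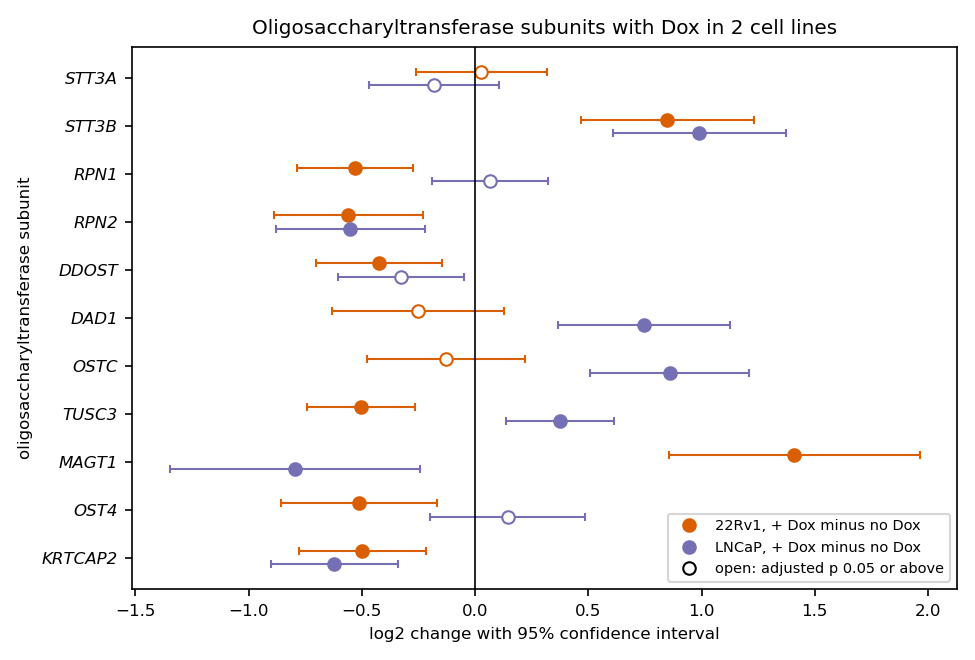
Log2 change (horizontal axis, with its 95% confidence interval) of the 11 oligosaccharyltransferase subunits (vertical axis) with Dox in 22Rv1 (orange) and LNCaP (purple), filled where the adjusted p by limma was under 0.05. MAGT1 lies at 1.41 and -0.79, TUSC3 at -0.50 and 0.38, and STT3B at 0.85 and 0.99.

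Of the 11 enzymes that assemble the lipid-linked oligosaccharide, 5 were called higher and 3 lower with Dox in LNCaP, and 1 higher and 2 lower in the knockdown. Of all genes 27.8% and 23.3% were called in these 2 comparisons. On the arrays labelled 22Rv1 with Dox limma called 0, the groups overlapped for all 11, and 1, ALG3 (-0.39), had an unadjusted p under 0.05. There 24.8% of all genes were called and 38.9% did not overlap. ALG13 and ALG14 form the transferase that adds the second N-acetylglucosamine, after DPAGT1 adds the first. ALG14 read 7.15, 7.23 and 6.89 on LNCaP arrays without Dox and 8.41, 8.46 and 8.51 with Dox, a rise of 1.37 (SE 0.24, adjusted p = 0.000596), and its other probe gave 1.41. ALG13 read 9.21, 9.36 and 8.91 and then 10.33, 10.19 and 10.21, a rise of 1.08 (SE 0.26, adjusted p = 0.00443). Neither pair of groups overlapped, but of the other ALG13 probes 1 gave 1.06 and the other -0.01. DPAGT1 was lower by -0.61 (adjusted p = 0.00568), while its other probe gave -0.36 (adjusted p over probes = 0.286, limma).

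ALG1, which adds the first mannose, rose in LNCaP with Dox by 0.69 (adjusted p = 0.00112). ALG3 (-0.59, 0.00796) and ALG9 (-0.78, 0.00159), mannosyltransferases of the ER lumen, were lower. ALG5 (0.56, 0.00762), which makes dolichol phosphate glucose, and ALG6 (0.67, 0.00411), which adds the first glucose from it, were higher. ALG8, which adds the next glucose, read 0.25 (adjusted p = 0.339). Another ALG8 probe, above background on all 18 arrays, gave 0.55 (adjusted p over probes = 0.0259, limma). The remaining probe, above background on 3 arrays, gave -0.07.

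In the knockdown ALG6 and ALG5 were called lower and ALG9 higher, and ALG6 changed most. It read 7.52, 7.43 and 7.30 on 22Rv1 arrays, 8.41, 8.48 and 8.54 on M4 scramble arrays and 7.16, 7.45 and 7.32 on shGal4 arrays, so the scramble arrays stood above both other groups. The knockdown change was -1.16 (SE 0.16, 2.24-fold, adjusted p = 1.23e-05) and the difference of M4 scramble from 22Rv1 1.06 (SE 0.16, adjusted p = 2.96e-05), and the 2 share the scramble arrays. LNCaP arrays read 7.97, 8.26 and 7.97 without Dox and 8.61, 8.75 and 8.86 with Dox, again without overlap. Both M4 calls held under every alternative and with any single array left out, whereas the knockdown calls of ALG5 (-0.43) and ALG9 (0.45) were lost when single arrays were left out, M4 scramble replicate 3 among them (adjusted p up to 0.199 and 0.285).

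ALG13 differed most between the untreated lines, with 7.25, 7.04 and 7.46 on 22Rv1 arrays against the LNCaP values above, a difference of 1.91 (SE 0.26, 3.76-fold, adjusted p = 2.25e-06). One of its other probes gave 1.48 and the remaining probe -0.58 (adjusted p over probes = 0.00916), so the ALG13 probes disagree in direction. ALG6 (0.65), ALG14 (0.67), ALG1 (0.41) and ALG2 (0.45, with overlapping groups) were also higher in LNCaP. These 4 calls were lost when arrays were scaled to a common median, without quantile normalization, which moved the median of all genes in that comparison by -0.11. Those of ALG1, ALG2 and ALG14 were also lost without single arrays, 22Rv1 replicate 2 lacking Dox among them (up to 0.295, 0.171 and 0.111 over all alternatives).

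The 3 subunits of dolichol phosphate mannose synthase, which charges dolichol phosphate with mannose, moved separately. The catalytic subunit DPM1 read 9.78, 9.84 and 9.59 on LNCaP arrays without Dox and 11.03, 11.14 and 11.12 with Dox, a rise of 1.36 (SE 0.17, 2.56-fold, adjusted p = 2.96e-05) that held in every alternative and was 1.19 by its other probe. In 22Rv1 it read 9.79, 9.67 and 9.64 and then 10.52, 10.67 and 9.82, with replicate 3 close to the controls but no overlap (0.64, SE 0.17, adjusted p = 0.00822, lost without replicate 2 labelled with Dox, up to 0.0621). The other DPM1 probe gave 0.43 there (adjusted p over probes = 0.118, limma). The anchoring subunit DPM2 read 7.63, 7.78 and 7.56 on M4 scramble arrays and 8.24, 8.18 and 8.06 on shGal4 arrays, without overlap (0.50, SE 0.13, adjusted p = 0.00654), a call lost under median scaling (0.124). DPM2 fell on the arrays labelled 22Rv1 with Dox from 7.41, 7.43 and 7.40 to 7.07, 6.87 and 7.12 (-0.39, adjusted p = 0.0298), a call lost when any 1 of 5 of the 6 arrays was left out (up to 0.163).

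DPM3, the other anchoring subunit, was called between the control groups and in no perturbation. It read 10.02, 10.10 and 9.83 on 22Rv1 arrays and 11.53, 11.32 and 11.18 on M4 scramble arrays. The groups were far apart (1.36, SE 0.16, 2.57-fold, adjusted p = 1.74e-06), and the other DPM3 probe gave 1.40. The knockdown arrays stayed near the scramble at 11.25, 11.33 and 10.92, which overlap (-0.18, 95% interval -0.52 to 0.16). Arrays labelled 22Rv1 with Dox read 10.35, 10.73 and 10.14, above those without Dox and with no overlap (0.42, 95% interval 0.08 to 0.76, adjusted p = 0.0649). LNCaP arrays read 10.60, 10.30 and 10.83 without Dox and 10.89, 10.86 and 10.88 with Dox, again with no overlap (0.30, 95% interval -0.04 to 0.64, adjusted p = 0.183).

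In the ER trimming step, MOGS (glucosidase I, which removes the outermost glucose) differed between the lines and in the knockdown. It read 6.39, 6.20 and 6.02 on M4 scramble arrays and 6.88, 7.02 and 6.89 on shGal4 arrays, a rise of 0.72 (SE 0.16, adjusted p = 0.00191) without overlap, called in every alternative at 0.37 to 0.81. In 22Rv1 it read 6.65, 6.72 and 6.70 without Dox and 6.44, 5.89 and 6.19 on the arrays labelled with Dox (-0.52, SE 0.16, adjusted p = 0.0198). That call was lost without replicate 2 labelled with Dox or without replicates 2 or 3 lacking it (up to 0.392 over all alternatives). LNCaP arrays lay lowest, at 4.97, 5.30 and 5.54, a difference of -1.42 from 22Rv1 (SE 0.16, 2.67-fold, adjusted p = 1.32e-07).

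GANAB and PRKCSH, the catalytic and the regulatory subunit of glucosidase II, were both lower with Dox in LNCaP, by -0.56 (adjusted p = 0.0112) and -0.58 (0.00783), and neither was called on the arrays labelled 22Rv1 with Dox (-0.11 and -0.21). The second PRKCSH probe gave -0.62 in LNCaP. MAN1B1, the ER mannosidase, read 9.45, 9.31 and 9.53 on LNCaP arrays without Dox and 8.10, 7.97 and 8.14 on 22Rv1 arrays. It was 2.56-fold higher in LNCaP (1.36, SE 0.14, adjusted p = 5.96e-08), without overlap. M4 scramble arrays read 7.70, 7.48 and 7.52, lower than 22Rv1 by -0.51 (adjusted p = 0.00839). That call was lost under both adjustments for the within-group axis (up to 0.201).

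The Golgi mannosidases were dim and near background on several arrays. MAN2A1, which removes mannoses after MGAT1 has acted, read 5.74, 5.72 and 5.62 on M4 scramble arrays and 4.34, 4.70 and 5.38 on shGal4 arrays, where only 1 of 3 was above background. The arrays did not overlap, and the change was -0.89 (SE 0.20, adjusted p = 0.00236). It was called in every alternative, but its size is uncertain with 2 of the 3 shGal4 arrays not above background, and ran from -0.28 without background correction to -1.17 without shGal4 replicate 3. It also fell on the arrays labelled 22Rv1 with Dox, from 5.49, 5.56 and 5.83 to 5.01, 5.11 and 4.80 (-0.65, SE 0.20, adjusted p = 0.0192), again without overlap. Leaving out replicate 3 of either of these groups, or the 3 arrays far along the within-group axis, ended that call (up to 0.146 over all alternatives).

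Its paralog MAN2A2 read 5.42, 5.65 and 5.69 on 22Rv1 arrays and 4.64, 4.42 and 5.15 on LNCaP arrays, of which 1 was above background. The difference was -0.85 (SE 0.19, adjusted p = 0.000845), and the groups did not overlap. No perturbation called MAN2A2: it read 5.63, 4.76 and 5.36 on the arrays labelled 22Rv1 with Dox, 5.47, 5.59 and 5.25 for M4 scramble and 5.09, 5.26 and 5.26 for shGal4, and the 3 LNCaP arrays with Dox were not above background. MAN1A2, a Golgi mannosidase of the preceding step, was higher in LNCaP than in 22Rv1 by 0.77 (adjusted p = 0.000583) and was called in no perturbation. The difference was called in every alternative, at 0.27 to 0.97. The other MAN1A2 probe, above background on 5 arrays, gave 0.21 (adjusted p over probes = 0.271, limma).

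Among the branching enzymes, MGAT2 was higher on the arrays labelled with Dox in both lines and lower in the knockdown. MGAT1 begins the first antenna of a complex glycan, MGAT2 the second, and MGAT4A, MGAT4B and MGAT5 add further branches. MGAT2 read 8.43, 8.53 and 8.53 on 22Rv1 arrays and 8.91, 9.10 and 8.87 on those labelled with Dox. In LNCaP it read 8.91, 9.05 and 8.75, and with Dox 9.40, 9.29 and 9.21. M4 scramble arrays read 9.40, 9.21 and 9.33 and shGal4 arrays 8.86, 8.81 and 8.84. None of these pairs overlapped, with changes of 0.46 (SE 0.12, adjusted p = 0.0061), 0.40 (SE 0.12, 0.0161) and -0.48 (SE 0.12, 0.00515). M4 scramble lay above 22Rv1 by 0.82 (adjusted p = 1.78e-05). A second MGAT2 probe, above background on only 3 arrays, gave 0.05, 0.47 and 0.20 in the 3 perturbations, and with both probes averaged the 22Rv1 Dox and knockdown calls were lost (adjusted p up to 0.212 and 0.411). Median scaling ended both Dox calls. The LNCaP call was also lost without LNCaP replicate 3 lacking Dox or replicate 1 with Dox (up to 0.282 over all alternatives).

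MGAT1 fell on the arrays labelled 22Rv1 with Dox, from 8.06, 8.16 and 8.23 to 7.38, 7.58 and 7.35. The groups did not overlap (-0.72, SE 0.15, 1.64-fold, adjusted p = 0.0013), and the call held in every alternative. In LNCaP it read 8.46, 8.01 and 8.75 and then 8.19, 8.22 and 8.00, which overlap (-0.27, adjusted p = 0.187). FUT8, which adds the core fucose, rose on the arrays labelled 22Rv1 with Dox from 5.56, 5.93 and 6.25 to 6.60, 6.87 and 6.61 (0.78, SE 0.16, 1.72-fold, adjusted p = 0.00123), without overlap, called in every alternative at 0.36 to 0.95. With Dox in LNCaP FUT8 changed by 0.18 (adjusted p = 0.449), and the difference between the lines, 0.60, was not called (adjusted p = 0.0741).

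MGAT5, which adds the branch that is extended into long galactose-bearing chains, read 9.23, 9.43 and 9.32 on LNCaP arrays without Dox and 8.68, 8.58 and 8.45 with Dox. The groups stood apart (-0.76, SE 0.16, adjusted p = 0.00197). In the knockdown it rose from 7.79, 7.73 and 7.42 to 8.00, 8.08 and 8.47 (0.54, SE 0.16, adjusted p = 0.018), without overlap, a call lost without replicate 3 of either group or with median scaling (up to 0.197 over all alternatives). On 22Rv1 arrays it read 8.32, 8.20 and 8.32, below LNCaP by a log2 difference of 1.05 (adjusted p = 1.09e-05) and above M4 scramble, which differed by -0.63 (0.00406). Its second probe gave -0.66, 0.54, 1.13 and -0.61 for the same comparisons. The M4 scramble call of MGAT5 was lost under both adjustments for the within-group axis (up to 0.234).

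MGAT4B was called only in M4 scramble over 22Rv1: it read 7.65, 7.51 and 7.31 on 22Rv1 arrays against 6.79, 6.81 and 6.76 on M4 scramble arrays, without overlap (-0.71, SE 0.16, adjusted p = 0.00195). That call was lost with the within-group axis as a covariate (0.0805), and the other MGAT4B probe, above background on 15 arrays, gave -0.54 (adjusted p over probes = 0.116, limma). By the main probe the MGAT4B difference in LNCaP over 22Rv1 was -0.06, and the changes in the perturbations were -0.40, -0.19 and 0.42, none called. MGAT4A was near background, read 4.64, 4.94 and 4.80 on 22Rv1 arrays, and stayed between 4.26 and 5.04 on all 18 arrays. It was called in none of the comparisons.

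**Figure D4:**
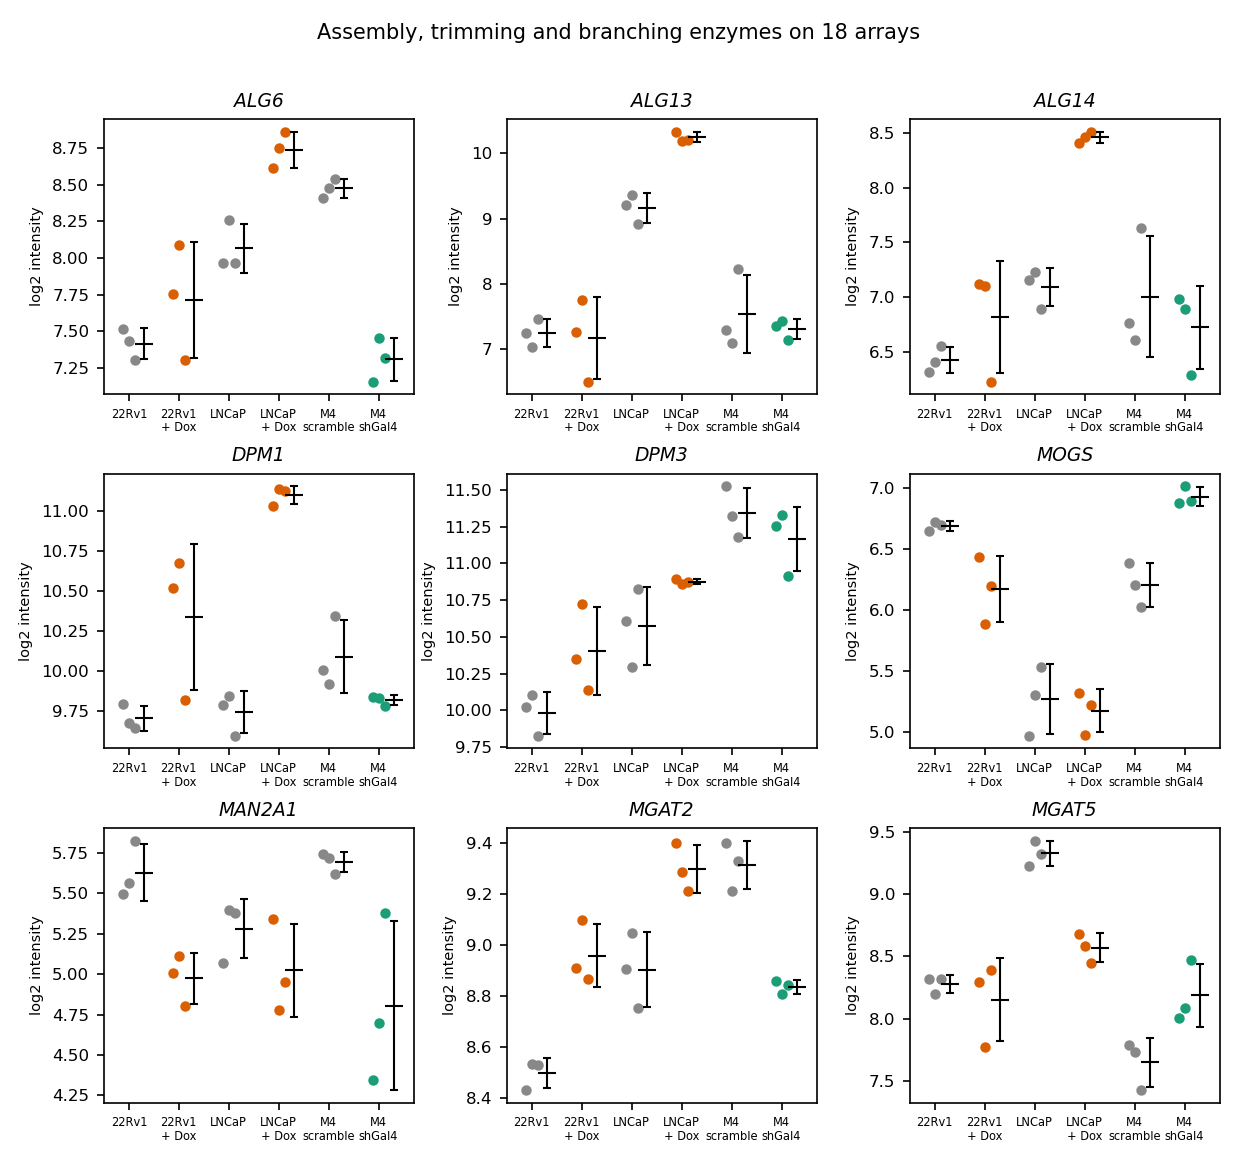
Log2 intensity (vertical axes) of 9 assembly, trimming and branching enzymes on the 18 arrays, by group (horizontal axes). Points are arrays, and the bar beside them is the mean with its SD (n = 3). ALG14 and DPM1 stand out on the 3 LNCaP arrays with Dox (8.41 to 8.51 and 11.03 to 11.14), and DPM3 is high on both M4 groups (10.92 to 11.53).

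The LNCaP Dox changes ran along a direction in which replicates of the other groups also varied. The first principal component of the deviations from the group means held 24.8% of the within-group variation. Scored on it, LNCaP arrays lay at -5.13, -14.5 and -3.35 without Dox and at 24.5, 25.2 and 26.7 with Dox, while replicates 2 and 3 labelled 22Rv1 with Dox lay at 18.2 and -30.3 and M4 scramble replicate 3 at 27.5. Across the 38 genes the LNCaP Dox change and the loading on this axis correlated at r = 0.88, and across all genes at 0.66, over genes that share the same arrays. With the array score as a covariate only DPM1 of the 20 members stayed called (0.87, adjusted p = 0.00761). With the axis projected out, an alternative chosen after seeing the data, 11 members were called. They were STT3B, OSTC, TUSC3, KRTCAP2, ALG1, ALG9, ALG14, DPM1, MGAT2 and MGAT5, and also MGAT1 (-0.43, adjusted p = 0.0316, limma), which the main model did not call. DAD1, ALG13, ALG5, ALG6, DPAGT1, ALG3, GANAB, PRKCSH, RPN2 and MAGT1 were not called. Both adjustments gave the same log2 changes and differed in their p-values only. The projection treats an axis fitted to these same replicates as known, and its p-values leave that fit out of account. What the axis stands for was not tested.

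**Figure D5:**
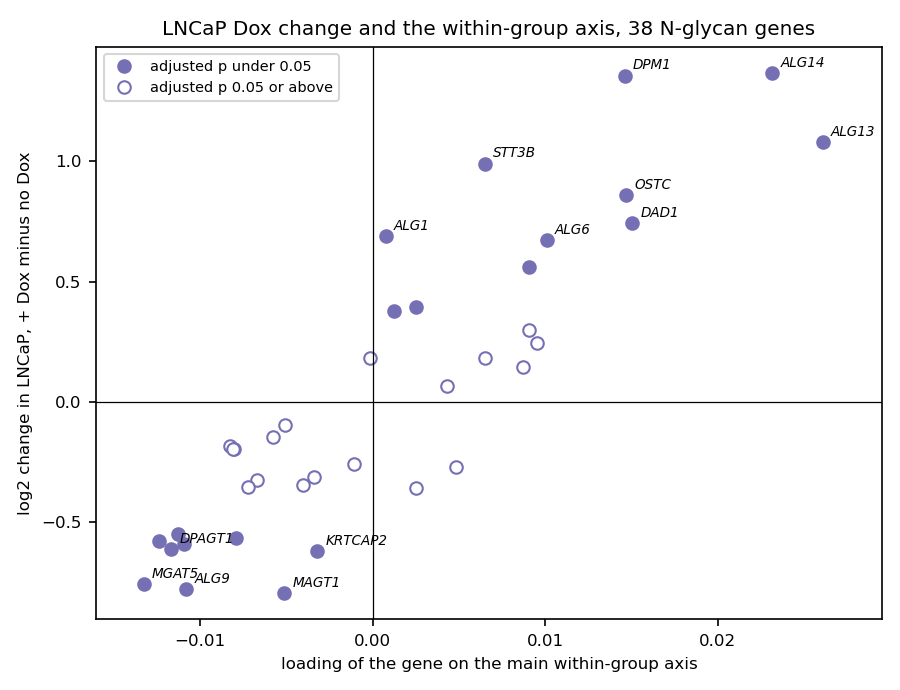
Log2 change with Dox in LNCaP (vertical axis) of the 38 N-glycan genes against their loading on the main within-group axis (horizontal axis, no unit), filled where the adjusted p by limma was under 0.05. Genes with high loadings, such as ALG14 (1.37) and ALG13 (1.08), lie high, and ALG9 (-0.78) and MGAT5 (-0.76) lie low, with r = 0.88 over the 38 points.

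Other genes of the pathway were counted from lists chosen by function. Of all genes, 24.8% were called on the arrays labelled 22Rv1 with Dox, 27.8% with Dox in LNCaP and 23.3% in the knockdown. Of 9 tested genes of dolichol supply and the remaining assembly steps, 3 were called, all lower, on the arrays labelled 22Rv1 with Dox, among them DHDDS (-0.85), a subunit of the enzyme that makes the dolichol chain, and DOLK (-0.80), dolichol kinase. In LNCaP with Dox 2 were higher and 1 lower, with the mannosyltransferase ALG11 at 0.81, and in the knockdown 2 were called, both higher. Of 12 genes of sugar nucleotide supply, 2 rose and 3 fell on the arrays labelled 22Rv1 with Dox, 2 were called with Dox in LNCaP, both lower, and 2 rose and 4 fell in the knockdown. SLC35A3, a Golgi carrier of UDP-N-acetylglucosamine, the sugar donor of the MGAT enzymes, was called at 0.67 on the arrays labelled 22Rv1 with Dox and at -1.15 in the knockdown, and was higher than in 22Rv1 in M4 scramble (1.39) and LNCaP (1.46). LNCaP over 22Rv1 called 8 of these 12 genes higher and 1 lower, with UAP1 at 1.66 and MPI at 1.33. In that comparison 50.3% of all genes were called, 23.7% higher and 26.6% lower.

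Genes that read glycans while proteins fold, such as calnexin and calreticulin, had 3 of 13 called on the arrays labelled 22Rv1 with Dox, all lower, with CALR at -0.93 and UGGT1, which tags misfolded glycoproteins with glucose, at -0.64. In LNCaP with Dox 1 was higher and 3 lower, with UGGT1 at -1.11, and in the knockdown 1 was higher and 2 lower, with NGLY1, which removes N-glycans from misfolded proteins, at -0.57. These were 23.1%, 30.8% and 23.1% of the 13 genes, near the 24.8%, 27.8% and 23.3% of all genes called. Of 10 remaining Golgi enzymes, 3 were called lower on the arrays labelled 22Rv1 with Dox, 1 higher in LNCaP with Dox, and 1 higher and 1 lower in the knockdown. ST6GAL1, which caps branches with sialic acid, was at -1.82 in the knockdown (adjusted p = 5.93e-08) and at -2.85 in LNCaP over 22Rv1 (5.03e-12). ER chaperones and unfolded protein response genes had 2 of 16 higher and 9 lower on the arrays labelled 22Rv1 with Dox, with CRELD2 at -1.22, the chaperone HSPA5 at -1.11 and a median of -0.61. They had 4 higher and 5 lower with Dox in LNCaP, where the stress transcription factor DDIT3 was at 1.66 and HSPA5 at -0.69 (median -0.18). In the knockdown 1 was higher and 6 lower, with DDIT3 at -1.21 and PDIA4, a disulfide isomerase, at -0.89 (median -0.26).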

How the data were processed

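Each deposited table was read by its column names. Per the file headers, the authors deposited a non-normalized table of linear probe intensity with a detection p-value per probe and array (47303 probes), and a second matrix of log2 values, which differed by 0.01 or less from quantile-normalized log2 intensities for 851340 of 851454 values. No source used here gives the scanner software. The neqc function of limma 3.58.1, run in R 4.3.3, subtracted a normexp background fitted from the detection p-values, added an offset of 16 and quantile-normalized the arrays. Changes are thus relative to most genes of an array, and those of dim probes are shrunk. Arrays give no counts, so their number limits the precision. Of all probes, 30103 carried 1 gene symbol, 8 several and 17192 none; only the first kind was analysed. Of these, 18408 had a detection p under 0.05 on at least 3 arrays, and each of the 13680 genes was represented by its brightest probe.

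One limma model of 6 group means (12 residual degrees of freedom, 18 arrays) gave all log2 changes, standard errors (SE) and two-sided p-values, adjusted by Benjamini-Hochberg over all genes. The model was tested on simulated data. Members, roles, gene lists and alternatives were chosen with earlier results of these data known. Every member may be named. Array values are given for up to 6 called members with the largest change in each comparison, for members called in all 3 perturbations and for the paralog pairs STT3A and STT3B, TUSC3 and MAGT1, MGAT4A and MGAT4B, and MAN2A1 and MAN2A2; those of RPN1 were added after its values were seen. In other lists, up to 3 called genes with the largest change may be named. Alternatives were no background correction, median scaling, no detection filter, the mean of a gene's probes, the deposited log2 matrix, the within-group axis as covariate or projected out, the replicate block, only the arrays compared, and leaving out arrays.

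Promoter windows came from RefSeq tables of GRCh38.p14. The labels and files name no genome build, so no other coordinates are given. Some marker genes of other lists are not reported here.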

Additional observations from a re-analysis of the deposited data

Results flagged for a closer look

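For 8 of the 38 genes (21.1%) the change with Dox differed between 22Rv1 and LNCaP by an interaction contrast in the limma model (adjusted p under 0.05). This share was near the 18.8% of all genes that passed. The differences, 22Rv1 minus LNCaP on the log2 scale, were 2.20 for MAGT1, -0.88 for TUSC3, -0.998 for DAD1, -0.99 for OSTC, -0.60 for RPN1, -0.71 for ALG1, -1.16 for ALG13 and -0.72 for DPM1. LGALS4 itself was not higher on the arrays labelled 22Rv1 with Dox, so these differences compare arrays of those labels and not equal levels of galectin-4. Those of MAGT1, TUSC3, DAD1 and OSTC held in every alternative and with any single array left out. The other 4 did not: highest adjusted p-values over the alternatives were 0.0925 for RPN1, 0.142 for ALG1, 0.0925 for ALG13 and 0.102 for DPM1.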

How the results depend on the processing

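Of the called members, 5 of 15 (22Rv1 Dox), 1 of 20 (LNCaP Dox), 4 of 10 (M4 knockdown), 4 of 8 (difference between the Dox changes), 4 of 14 (M4 scramble over 22Rv1) and 10 of 18 (LNCaP over 22Rv1) kept their call in every alternative and with any array left out. Leaving out 1 array gave 9 to 21 called members for 22Rv1 Dox (9 without replicate 3 lacking Dox), 17 to 21 for LNCaP Dox, 6 to 10 for the knockdown (6 without scramble replicate 3), 5 to 15 for the difference between the Dox changes, 10 to 13 for M4 scramble over 22Rv1 and 14 to 18 for LNCaP over 22Rv1. The share of all genes called is given here for the main model only. Whether the member counts under the alternatives differ from those of all genes was therefore not tested. With the within-group axis as a covariate 1 member was called for LNCaP Dox and 4 for M4 scramble over 22Rv1. With the axis projected out, chosen after seeing the data, 11 were called for LNCaP Dox. In M4 scramble over 22Rv1 OSTC then turned from 0.09 to -0.32 (adjusted p = 0.0277, limma) and ALG13 from 0.28 to -0.45 (0.0271). With the axis as a covariate the same changes had adjusted p of 0.14 and 0.131 by limma, so neither reversal was called there. The cause was not tested. Median scaling called 11 members for LNCaP over 22Rv1, 5 higher and 6 lower in place of 12 and 6, and 7 for the knockdown, 1 higher and 6 lower in place of 4 and 6. It moved the share of higher calls among all genes from 36.8% to 25.3% (22Rv1 Dox), 55.7% to 34.9% (knockdown), 50.1% to 38.5% (difference between the Dox changes) and 47.1% to 34.2% (LNCaP over 22Rv1), and for LNCaP Dox from 39.1% to 48.5%.

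With the replicate number as a block, the counts were 15, 20, 7, 7, 14 and 17 in the order above. Same-numbered arrays deviated together little, with correlations from -0.11 to 0.11. These values cannot show whether same-numbered arrays were handled together, and the labels do not state it, so any pairing is unknown. With 3 arrays a group, differences of a dim gene such as MGAT4A that lay within the spread of its arrays were not detectable at this signal.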
